A study of Mus musculus with 4 samples.

Results

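A set of 136 genes was brighter in both pools of HP1γ-null cells than in both pools of wild-type cells from the mouse genital ridge. The set was chosen from the measured values themselves. Of 18318 named genes on the array, 11310 were well above background on all 4 arrays, and 1794 of these (15.9%) had both null values above both wild-type values, against 2426 (21.5%) with both below. With a difference of at least 2-fold as well, 284 genes (2.51%) lay above and 48 (0.424%) below. These shares are given as background only, since the members were chosen on this contrast. The 150 higher genes with the largest difference between the genotype means were taken. Next, 12 keratin and singly named genes were left out, from Peg3 at 2.81-fold to Amph at 31.9-fold. Rian and Dlk1 were also left out, because null pool 2 exceeded the next highest pool by 4.07 and 4.23 on the log2 scale. Every difference between genotypes given for these genes is therefore a description, without a test.

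The cells were mVenus-positive cells sorted from genital ridges at embryonic day 11.5 and labelled as primordial germ cells, the precursors of eggs and sperm. The HP1 gamma -/- embryos carried a gene-trap mutation of HP1γ on both alleles, and the wild-type embryos carried none. Embryos of both genotypes carried the Blimp1-mVenus transgene, in which a fluorescent protein reports activity of Blimp1 (Prdm1), a gene that other cell types also use. Each pool held RNA of 5 or 6 embryos with 500 to 3500 sorted cells per embryo, and there were 2 pools per genotype, each on 1 one-colour array. The labels do not give the sex of the embryos or the strain background. Whether more cells of a type or more RNA per cell raised a signal cannot be told apart in such pools.

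HP1γ, encoded by Cbx3, binds methylated histone H3 and helps to keep chromatin silent. It acts with the H3K9 methyltransferases and is also found in a Polycomb-type repressor complex that keeps germline genes off in somatic cells. The genital ridge at this stage is a coelomic epithelium over gonadal somatic precursors, vessels and arriving germ cells, and these cell types use the same signalling families (Wnt, BMP, Eph) in different ways. The genes described here are a mixture of secreted, membrane, metabolic and nuclear proteins, so they are ordered by what their products do.

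A level is given as the log2 of the signal after division by the 75th percentile of its array, so a level of 0 equals that percentile. Cbx3 had levels of -1.24 and -2.78 in null pools 1 and 2, against 5.89 and 5.72 in wild-type pools 1 and 2, and was thus 225-fold lower in the pools labelled null. Over the array, limma called 2 of 22440 probes (0.00891%) at an adjusted p under 0.05, both lower in the null pools, of which 1 is a second Cbx3 probe (adjusted p = 0.0441) and the other has no gene name here (adjusted p = 0.0252). No probe was called higher, and 1685 had an unadjusted p under 0.05. Germ cell markers did not follow the labels evenly. Pou5f1, Dppa3, Ddx4, Dazl and Tfap2c were well above background in null pool 1 and both wild-type pools, and not in null pool 2. Prdm1, the gene behind the Blimp1-mVenus reporter, was well above background on all arrays. It had 1.48 and 0.65 in the null pools, against 1.24 and 1.27 in the wild-type pools. All 21 endothelial markers and 16 of 17 leukocyte markers were well above background on all arrays. Of the 21 endothelial markers, 20 were lower in both null pools, against 21.5% of the 11310 genes. Of 14 germ cell identity genes, 7 were not well above background in null pool 2, against 0 in null pool 1 and 2 in each wild-type pool. Markers of vessels and leukocytes were thus measured in every pool. Of the germ cell identity genes, 7 of 14 were not measured in null pool 2.

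The genes described here were dim in wild type. Their median level was -0.18 in the null pools and -2.03 in the wild-type pools (medians of the genotype means), where the 11310 genes had medians of 0.76 and 0.77. On at least 1 wild-type array, 37 of the 136 lay within 1 log2 unit of the lowest signal called well above background. The log2 differences ran from 1.30 to 4.10 with a median of 1.70, or 2.47-fold to 17.2-fold with a median of 3.25-fold. Over the 11310 genes the median difference was -0.03. The smallest differences inside the limit were those of Wscd2 and Aldh1a1, both 2.47-fold, and the largest outside it were those of Pcdhb5 and Serpinb6b, both 2.46-fold. The label of genes strongly higher in both null pools held in a strict sense for 62 of the 136, in which the lower null pool lay over 1 log2 unit above the higher wild-type pool. In 16 of the 136 that gap was under 0.25.

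Sequence was examined where members lay next to each other or were close copies. In the RefSeq gene order (GRCm38.p6) of the genes named on the array, 8 members formed 5 neighbouring pairs, all within the stefin A cluster and the protocadherin beta cluster. Stefin A genes encode small inhibitors of cysteine proteases (cathepsins). The windows from 250 bases before to 50 after the transcript start of the 5 stefin members, from RefSeq, are shown because these related genes lay higher together. Capitals mark the longest run of letters, 10 bases, that all 5 windows share.

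Csta1 (chr16:36131140-36131439, minus strand): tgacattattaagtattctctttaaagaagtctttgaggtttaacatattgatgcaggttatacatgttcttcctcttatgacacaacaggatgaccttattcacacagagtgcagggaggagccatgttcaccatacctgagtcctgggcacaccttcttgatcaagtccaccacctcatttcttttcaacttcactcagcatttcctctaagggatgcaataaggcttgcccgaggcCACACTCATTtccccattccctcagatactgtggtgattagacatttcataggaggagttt
Cstdc4 (chr16:36183962-36184261, plus strand): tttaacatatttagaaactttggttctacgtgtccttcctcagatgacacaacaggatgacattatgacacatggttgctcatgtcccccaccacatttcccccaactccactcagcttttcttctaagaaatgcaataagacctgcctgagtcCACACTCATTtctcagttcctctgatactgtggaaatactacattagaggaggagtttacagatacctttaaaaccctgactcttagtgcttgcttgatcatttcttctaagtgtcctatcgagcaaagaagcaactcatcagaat
Cstdc5 (chr16:36367521-36367820, minus strand): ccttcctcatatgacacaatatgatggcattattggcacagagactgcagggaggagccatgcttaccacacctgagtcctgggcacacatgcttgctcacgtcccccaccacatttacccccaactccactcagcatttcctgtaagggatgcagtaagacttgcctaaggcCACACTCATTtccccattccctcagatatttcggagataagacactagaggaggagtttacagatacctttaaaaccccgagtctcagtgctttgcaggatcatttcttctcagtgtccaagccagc
Stfa2 (chr16:36408314-36408613, minus strand): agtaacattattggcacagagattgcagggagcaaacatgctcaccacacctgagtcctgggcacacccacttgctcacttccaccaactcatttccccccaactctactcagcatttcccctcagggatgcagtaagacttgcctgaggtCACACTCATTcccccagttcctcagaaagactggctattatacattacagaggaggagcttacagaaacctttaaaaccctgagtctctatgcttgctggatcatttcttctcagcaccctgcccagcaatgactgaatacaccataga
Stfa2l1 (chr16:36156561-36156860, plus strand): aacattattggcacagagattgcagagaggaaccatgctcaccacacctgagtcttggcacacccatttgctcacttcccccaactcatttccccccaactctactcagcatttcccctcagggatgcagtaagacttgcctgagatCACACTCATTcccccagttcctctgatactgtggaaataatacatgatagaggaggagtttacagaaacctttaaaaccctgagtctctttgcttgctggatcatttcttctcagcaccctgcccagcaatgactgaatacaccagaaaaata

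Aligned in pairs, the windows of Stfa2 and Stfa2l1 were identical at 275 of 297 columns (92.6%), the highest of the 10 stefin pairs, and those of Csta1 and Cstdc4 at 171 of 265 (64.5%), the lowest. A closer pair was Bex1 and Bex4, identical at 291 of 298 columns (97.7%), X-linked genes for small adaptor proteins of neurotrophin receptor signalling. Capitals mark the 271 bases that their windows share without a difference. They are shown because both genes were brightest in null pool 1.

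Bex1 (chrX:136215464-136215763, minus strand): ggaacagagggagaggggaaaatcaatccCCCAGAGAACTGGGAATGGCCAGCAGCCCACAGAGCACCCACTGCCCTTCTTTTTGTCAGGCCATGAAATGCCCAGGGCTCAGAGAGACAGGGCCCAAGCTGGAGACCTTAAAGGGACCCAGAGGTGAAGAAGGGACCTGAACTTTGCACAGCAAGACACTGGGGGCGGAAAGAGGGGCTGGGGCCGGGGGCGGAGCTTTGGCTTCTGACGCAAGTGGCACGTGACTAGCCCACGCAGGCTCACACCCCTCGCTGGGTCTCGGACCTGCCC
Bex4 (chrX:136138746-136139045, plus strand): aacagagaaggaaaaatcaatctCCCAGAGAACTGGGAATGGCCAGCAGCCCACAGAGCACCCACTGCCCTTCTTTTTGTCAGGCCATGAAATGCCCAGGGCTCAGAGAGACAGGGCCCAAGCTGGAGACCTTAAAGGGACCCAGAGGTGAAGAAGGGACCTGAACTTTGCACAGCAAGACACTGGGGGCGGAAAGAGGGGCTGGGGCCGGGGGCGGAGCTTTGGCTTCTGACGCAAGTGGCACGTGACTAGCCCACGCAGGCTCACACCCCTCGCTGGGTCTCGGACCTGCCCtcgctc

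The stefin A cluster was higher throughout. Of 8 stefin genes on the array, all were well above background in every pool. All 8 had both null values above both wild-type values, against 15.9% of the 11310 genes. The family was set after the values were seen, and its members were chosen on that property. Csta1 had levels of 4.78 and 5.04 in the null pools, against 3.36 and 3.74 in the wild-type pools. Cstdc4 had 3.03 and 3.59 in the null pools, against 1.59 and 1.54 in the wild-type pools. The 2 null pools lay within 0.56 of each other for each of the 5 stefin members, and the groups were well apart. Cstdc5, Stfa2 and Stfa2l1 differed by 1.42, 1.38 and 1.50 on the log2 scale. Of the 3 stefin genes that are not members, Stfa1 fell just outside the limit at 1.30, Stfa3 differed by 1.12 and Csta2, much the dimmest, by 0.50. The probes of such close copies may bind each other's transcripts, so the 8 values may not be independent of each other.

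Bex1 had levels of 3.34 and 1.54 in null pools 1 and 2, against 0.55 and 0.28 in the wild-type pools. Bex4 had 4.37 and 1.42 in null pools 1 and 2, against 1.17 and 0.53 in the wild-type pools. Both were far brighter in null pool 1 than in null pool 2, though probes of such close copies may bind each other's transcripts. The gap between null pool 2 and wild-type pool 1 was 0.99 in Bex1 and 0.25 in Bex4. The other genes of the family did not share that pattern: Bex2 had 3.01 in each null pool, against 1.96 and 1.72 in the wild-type pools, and Bex3 had 4.58 and 5.16, against 4.13 and 3.98. The plot of paralogue families sets these courses side by side.

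**Figure D1:**
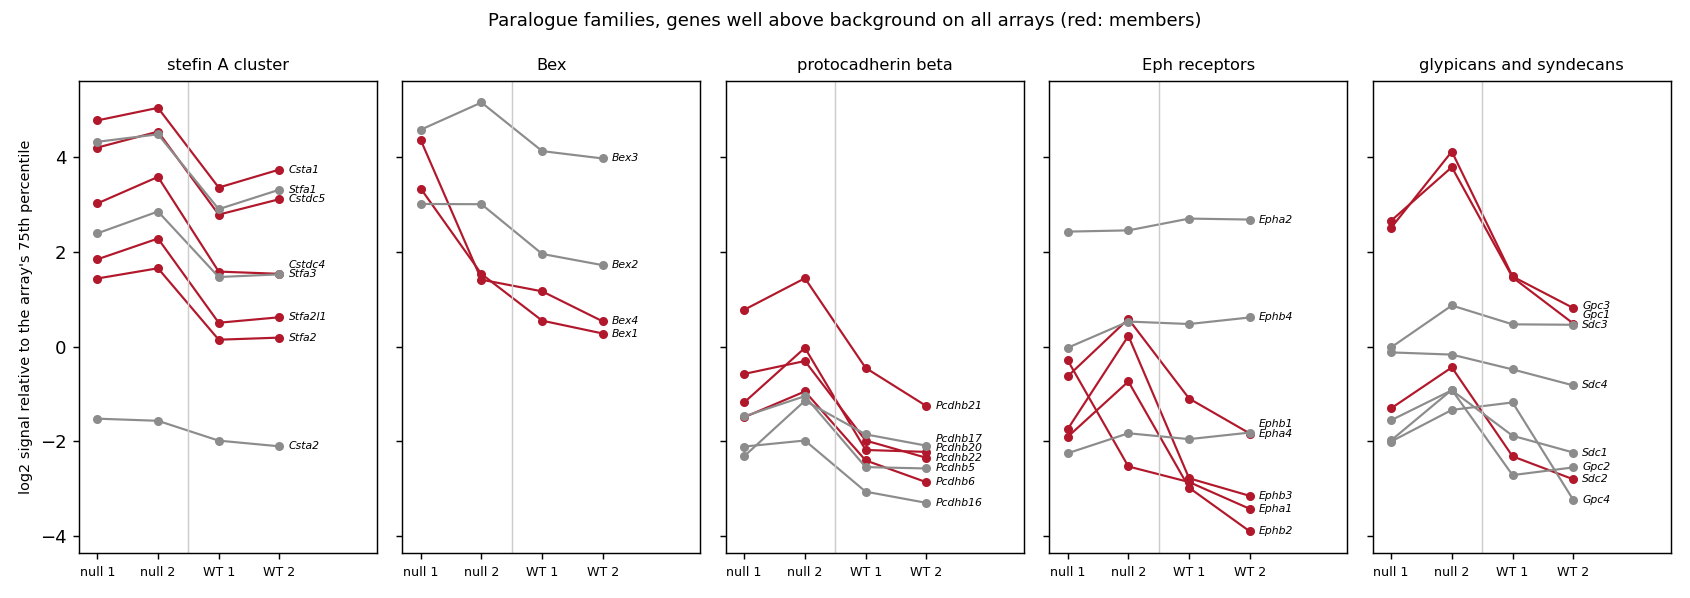
Levels (log2 signal relative to the array's 75th percentile) of paralogues well above background on all arrays, in null pools 1 and 2 and wild-type pools 1 and 2, with a line for each gene, members in red and other genes of the family in grey. All 8 stefin genes, all 4 Bex genes and 4 of the 7 Eph receptor genes lay higher in both null pools, against 15.9% of the 11310 genes. The families were set after the values were seen, and probes of close copies may bind each other's transcripts.

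Genes for 3 secreted or surface proteins, Serpina1d, Clca1 and Cpm, were among the 7 members with the largest differences. Serpina1d, a paralogue of the serine protease inhibitor alpha-1 antitrypsin, had levels of 3.03 and 0.27 in null pools 1 and 2, against -2.73 and -2.17 in the wild-type pools, a 17.2-fold difference. Clca1, which encodes a secreted protein of mucus-forming epithelia, had 4.06 and -0.56 in the null pools, against -2.28 and -1.35 in the wild-type pools (11.9-fold). Cpm, a membrane carboxypeptidase gene, had 1.88 and -0.71 in the null pools, against -2.09 and -1.93 in the wild-type pools. In these 3 genes null pool 1 was the brightest by over 2 log2 units. Without null pool 1 the log2 difference of Clca1 was 1.26, and without null pool 2 it was 5.88. The group of protease inhibitors and proteases held 12 members, with differences of 1.36 to 4.10. It also holds Slpi, the secreted inhibitor of leukocyte elastase, the inhibitor-like gene Wfdc15a, and the protease genes Htra1 and Mmp23. Mmp23 had the narrowest gap of all members, with -2.59 in null pool 1 and -2.59 in wild-type pool 1, which lay 0.00437 apart.

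**Figure D2:**
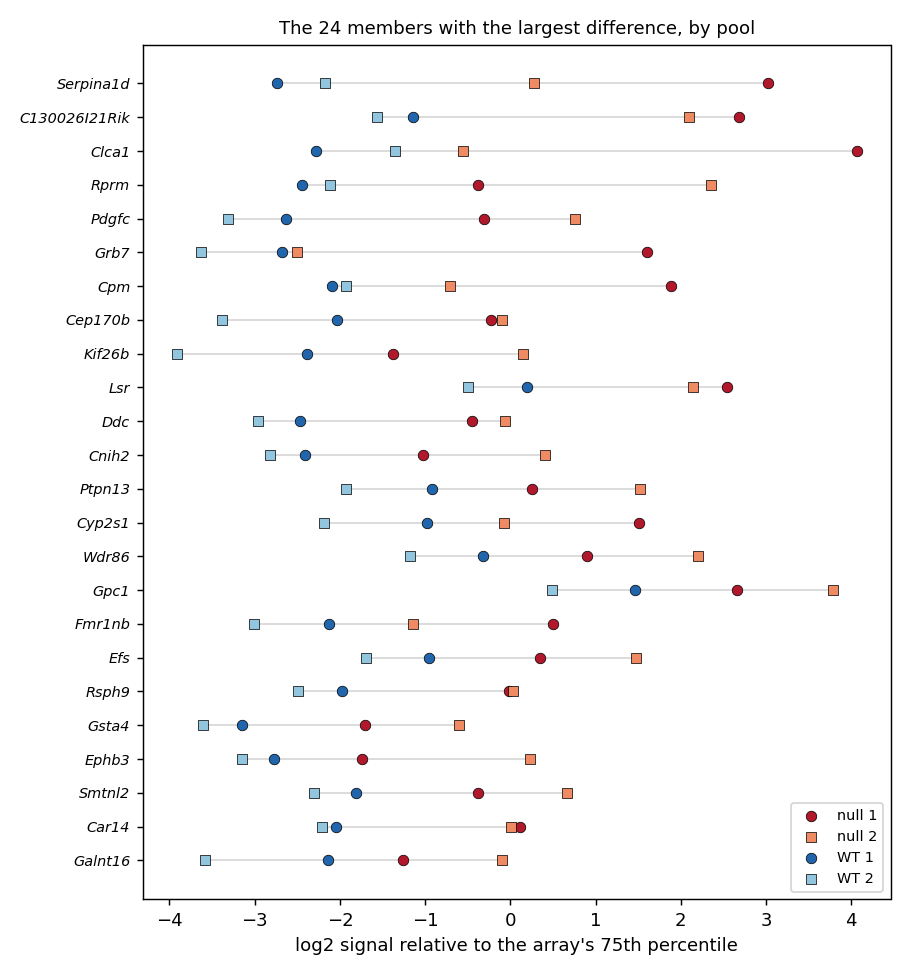
Levels (log2 signal relative to the array's 75th percentile) of the 24 members with the largest difference, in null pools 1 and 2 (red and orange) and wild-type pools 1 and 2 (dark and light blue). Serpina1d, Clca1, Grb7 and Cpm were brightest in null pool 1 and Rprm in null pool 2, while Cep170b, Rsph9 and Car14 had nearly equal levels in both null pools.

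Among 14 genes for secreted ligands and their modulators, 11 were brighter in null pool 2 than in null pool 1. Pdgfc, a ligand of PDGF receptor alpha, had -0.31 and 0.76 in the null pools, against -2.63 and -3.31 in the wild-type pools, a 9.16-fold difference. Its second probe gave -1.30 and 0.06 in the null pools, against -3.07 and -3.78 in the wild-type pools. Both probes thus placed the null pools well above wild type. Rspo1, an enhancer of Wnt signalling needed for ovarian development, had -0.08 and 1.55 in the null pools, against -0.46 and -1.43 in the wild-type pools. Wnt6, a Wnt ligand, had -0.21 and 0.46 in the null pools, against -0.79 and -2.01 in the wild-type pools. In Rspo1 and Wnt6 wild-type pool 1 lay between null pool 1 and wild-type pool 2, and the groups were separated by 0.38 and 0.58. Bmp7, a BMP ligand of mesonephric and other epithelia, ran the other way between the null pools. It had 0.93 and -1.32 in null pools 1 and 2, against -1.49 and -2.67 in the wild-type pools. Penk, the precursor gene of enkephalins, was even within each genotype, with 0.53 and 0.18 in the null pools, against -1.84 and -1.52 in the wild-type pools (4.09-fold). Vegfa, the vascular growth factor, differed by 1.36, and by 2.06 and 1.97 on the 2 other probes that were well above background on all arrays. The rest of the group (Insl6, Ccl27a, Fndc5, Ltbp3, C1qtnf7, Shisa2, Dact1, Fjx1) differed by 1.33 to 2.02. The difference of C1qtnf7 was 0.32 without wild-type pool 2.

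Wnt6, Rspo1 and their partners can be set beside the whole Wnt pathway list. Of 49 Wnt pathway genes on the array, 24 were well above background in every pool. Both null pools lay above wild type for 7 of these (29.2%) and below it for 4. Over the 11310 genes the shares were 15.9% above and 21.5% below. Members were 4 of the 7, namely Dact1, Fzd2, Rspo1 and Wnt6. Fzd2, a Wnt receptor, had -0.52 and 1.22 in the null pools, against -0.80 and -1.90 in the wild-type pools. Dact1, a Dishevelled-binding regulator, had -1.49 and 0.59, against -1.70 and -3.02. For Fzd4, a Wnt and norrin receptor gene of vessels, the order was reversed, with 2.63 and 3.18 in the null pools, against 3.59 and 3.64 in the wild-type pools. Of 45 BMP, TGF-β and activin genes 27 were measured in every pool, 5 higher (18.5%) and 6 lower, and only Bmp7 is a member. The higher share was near that over the 11310 genes. Amhr2, a receptor gene of the TGF-β family, was left out by name at 4.42-fold.

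Of 12 receptor genes, 4 encode Eph receptors, tyrosine kinases that bind membrane-held ephrins and set cell boundaries. Ephb3 had -1.74 and 0.23 in the null pools, against -2.78 and -3.15 in the wild-type pools (4.62-fold). Ephb2 had -1.90 and -0.73 in the null pools, against -2.98 and -3.90 in the wild-type pools (4.34-fold). Epha4 differed by 1.44, and these 3 genes were brighter in null pool 2. Epha1 was brighter in null pool 1, with -0.28 and -2.53 in the null pools, against -2.86 and -3.42 in the wild-type pools. Not all Eph genes did this. Of 7 Eph receptor genes well above background in every pool, Epha2, the brightest, had 2.43 and 2.46 in the null pools, against 2.71 and 2.69 in the wild-type pools. Ephb1 and Ephb4 differed by -0.16 and -0.29. Of the 7, 4 were higher in both null pools, all of them members, and 1 was lower. None of the 6 ephrin genes measured in every pool had both null values above both wild-type values, and Efna1 was lower in both. Among the 11310 genes 15.9% were higher and 21.5% lower. Families this small, set after the values were seen, cannot be set against each other by such counts. Lpar2, Grik5, Igdcc4, Sirpb1b and Gpr162, a mixed group of lipid, glutamate and orphan receptors among them, differed by 1.33 to 1.52. Pth1r, the parathyroid hormone receptor gene, differed by 2.14 and Fcgr2b, the inhibitory IgG receptor gene of leukocytes, by 1.81. The 2 other Fcgr2b probes gave 1.91 and 1.86, and the null and wild-type values did not overlap on any of the 3. The leukocyte list itself held no higher gene among 16 measured in every pool, and 4 lower ones. The shares over the 11310 genes were 15.9% higher and 21.5% lower.

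Among 8 genes of proteoglycans and matrix, 7 were brighter in null pool 2. Glypicans and syndecans are heparan sulfate proteoglycans that hold growth factors at the cell surface. Gpc1 had 2.66 and 3.79 in the null pools, against 1.46 and 0.49 in the wild-type pools (4.75-fold). Gpc3, an X-linked regulator of embryonic growth, had 2.51 and 4.12, against 1.48 and 0.82 (4.49-fold). Sdc2 differed by 1.69. Of 8 glypican and syndecan genes measured in every pool, 6 were higher in both null pools, against 15.9% of the 11310 genes. Gpc4 and Sdc3 overlapped between the genotypes. The family was set after the values were seen, and 3 of the 6 are members. Sulf1, which trims sulfate from heparan sulfate, had 0.21 and 1.89 in the null pools, against 0.08 and -0.91 in the wild-type pools. Ccdc80, a matrix protein gene, had -0.20 and 2.45 in the null pools, against -0.25 and -0.45 in the wild-type pools, so null pool 1 hardly differed from wild type. Without null pool 2 its log2 difference was 0.14, the smallest of all members. Spon2, by contrast, had -1.73 and -1.62 in the null pools, against -3.31 and -3.39 in the wild-type pools. Vcan and Thbs3 differed by 1.59 and 1.92. Stromal markers as a list had median levels of -0.70 and 1.48 in null pools 1 and 2, against -0.03 and -1.01 in wild-type pools 1 and 2, so they too were brightest in null pool 2. Of 17 stromal markers measured in every pool 1 was higher (5.88%) and 3 lower, against 15.9% and 21.5% of the 11310 genes. What part stromal cells have in these values was not tested.

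All 8 adhesion genes were brighter in null pool 2, and 4 of them belong to the protocadherin beta cluster, a tandem array of genes for cell recognition proteins. Pcdhb21 had 0.78 and 1.45 in the null pools, against -0.45 and -1.25 in the wild-type pools. Pcdhb22 had -0.57 and -0.30 in the null pools, against -1.98 and -2.34 in the wild-type pools. Both genes were clear of wild type in both null pools. Pcdhb20 and Pcdhb6 differed by 1.60 and 1.41. Of 22 protocadherin beta genes on the array 7 were well above background in every pool. Both null pools lay above wild type for 6 of the 7, against 15.9% of the 11310 genes. This family was set after the values were seen, and 4 of the 6 are members. Besides the members, Pcdhb5 and Pcdhb16 were higher in both null pools by 1.30 and 1.13, and Pcdhb17 overlapped between the genotypes. The other 15 were not measured in every pool, and these values say nothing of them. Members outside the cluster were Tenm3, Igsf9, Lrrn3 and Nlgn2, with differences of 1.34, 1.47, 1.76 and 1.67. Nlgn2 had -2.76 and -0.17 in the null pools, against -3.06 and -3.20 in the wild-type pools. Without null pool 2 its log2 difference was 0.37.

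A loose group of 10 genes of epithelia, polarity and adaptors was set after the values were seen. Of these 10, 7 were brighter in null pool 1, unlike the matrix genes. Lsr, a component of tricellular junctions, had 2.55 and 2.14 in the null pools, against 0.20 and -0.49 in the wild-type pools, and was 5.62-fold higher. Grb7, an adaptor of receptor tyrosine kinases, had 1.60 and -2.50 in the null pools, against -2.68 and -3.63 in the wild-type pools. Null pool 2 thus lay only 0.18 above wild-type pool 1 for Grb7, and without null pool 1 its log2 difference was 0.66. Llgl2, a basolateral polarity gene, had -0.70 and -2.39, against -3.10 and -3.39, and Camsap3, which anchors microtubule minus ends in epithelia, 0.14 and -1.97, against -2.08 and -3.56. The remaining 6 (Pard6g, Dlg3, Fam83h, Mapk13, Ank3 and Lor) differed by 1.40 to 2.01. Of 20 epithelial junction genes measured in every pool, both null pools lay above wild type for 6 (30.0%) and below it for 4. Over the 11310 genes these shares were 15.9% and 21.5%. Among the mesothelial and coelomic epithelial markers, 9 of 19 (47.4%) were higher and 2 lower. The summed linear level of all 30 such markers on the array, in units of the 75th percentile, was 51.4 and 44.6 in the null pools, against 16.1 and 12.99 in the wild-type pools. Of these markers 4 and 0 were not well above background in null pools 1 and 2, and 10 and 9 in wild-type pools 1 and 2. The list and the members share Rspo1, Sulf1 and Slpi. The part of coelomic epithelial cells in the members' values was not tested.

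Transcription factors and chromatin proteins were encoded by 11 genes. Nr0b1 (Dax1), an X-linked nuclear receptor of the gonad and adrenal, had -0.35 and -1.09 in the null pools, against -2.03 and -3.58 in the wild-type pools (4.26-fold). Gata6, a zinc finger factor of gonadal and visceral mesoderm, had -0.26 and 1.43 in the null pools, against -0.81 and -1.68 in the wild-type pools. Another of its probes differed by 2.12. Klf5, a factor of epithelia and pluripotent cells, had -0.33 and -2.56 in the null pools, against -3.001 and -3.46 in the wild-type pools, and was brightest in null pool 1. Smarcd3, a chromatin remodelling subunit, was the reverse, with -2.13 and 0.72 in the null pools, against -2.45 and -2.36 in the wild-type pools. Without null pool 2 Smarcd3 differed by 0.28, and without null pool 1 Klf5 differed by 0.67. H2bu2, a histone H2B gene, and Cenpv, a centromere protein gene, were steady. H2bu2 had 1.90 and 1.96 in the null pools, against 0.15 and -0.09 in the wild-type pools, and Cenpv had 1.87 and 1.68, against 0.53 and 0.35. Zfp975, a zinc finger gene, was the brightest member on average, with 5.26 and 6.18 in the null pools, against 4.21 and 3.36 in the wild-type pools. Its 2 other probes differed by 0.82 and 1.92, and since zinc finger genes have close copies the probes may not bind 1 transcript. Cux2, Foxo6, Runx1t1 and Zfp612 differed by 1.78 to 2.07. Of 35 gonadal somatic markers on the array, 15 were measured in every pool, 6 higher (40.0%) and 3 lower. Over the 11310 genes 15.9% were higher and 21.5% lower. The summed linear level of the 35 markers was 34.5 and 60.8 in the null pools, against 36.7 and 30.1 in the wild-type pools. Nr5a1 and Gata4 were well above background on 2 and 1 of the 4 arrays. The part of gonadal somatic cells in the values of Nr0b1, Gata6 and Rspo1 was not tested.

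The 16 genes of metabolic enzymes differed by 1.30 to 2.46. Ddc, the decarboxylase that makes dopamine and serotonin, had -0.45 and -0.06 in the null pools, against -2.46 and -2.96 in the wild-type pools (5.50-fold). Car14, a membrane carbonic anhydrase gene, had 0.11 and 0.00 in the null pools, against -2.05 and -2.21 in the wild-type pools (4.56-fold). Eno3, the muscle enolase gene, had 1.06 and 1.02, against -0.67 and -0.58 (3.17-fold). In these 3 genes the pools of each genotype lay within 0.50 of each other. Ldhb, a lactate dehydrogenase subunit, was among the brightest members, with 4.57 and 4.79 in the null pools, against 3.61 and 2.50 in the wild-type pools. Genes of glutathione and xenobiotic metabolism were Gsta4, Gstt3 and Cyp2s1, with differences of 2.22, 1.45 and 2.30. The difference of Gstt3 was 0.34 without null pool 1. Galnt16, Pde9a, Bdh2, Akr1c19, Echdc2, Cdo1, Tst and Acot1 differed by 1.35 to 2.18. Aldh1a1, an enzyme gene of retinoic acid synthesis, had -1.19 and -1.20 in the null pools, against -1.44 and -3.56 in the wild-type pools, so its difference rested on wild-type pool 2. Without that pool it was 0.24. Of the 38 Notch, Hedgehog and retinoid genes, 26 were measured in every pool, 1 higher (Aldh1a1) and 9 lower. The shares over the 11310 genes were 15.9% higher and 21.5% lower.

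Channels and transporters gave 7 members (Cnih2, Cacnb3, Kcne1l, Nkain1, Slc1a6, Atp1b1 and Atp6v0e2), with differences of 1.45 to 2.31. That of Slc1a6 was 0.36 without null pool 2. Nkain1, which interacts with the sodium pump, had -1.57 and -1.83 in the null pools, against -3.45 and -3.43 in the wild-type pools. Cytoskeletal and ciliary genes numbered 9. Rsph9, a radial spoke gene of motile cilia, had -0.02 and 0.03 in the null pools, against -1.97 and -2.49 in the wild-type pools (4.71-fold). Cep170b, a microtubule-associated gene, had -0.23 and -0.10, against -2.04 and -3.38, and Kif26b, a kinesin family gene, -1.37 and 0.15, against -2.39 and -3.91. Both differed by over 5-fold, at 5.84 and 5.82. Wdr35 and Dzip1, genes of primary cilium assembly, differed by 1.41 and 1.70. Smtnl2, Mtus2, Eml2 and Cyfip2 differed by 1.32 to 2.20. Besides Bex1 and Bex4, 4 genes of neuronal and vesicle proteins are members, namely Syt13 and Rab15 of vesicle traffic, Plppr3 and Necab2, with differences of 1.36 to 1.98. Of 59 neuronal-type genes on the array, 28 were measured in every pool, 9 higher (32.1%) and 4 lower, against 15.9% and 21.5% of the 11310 genes. The members in this list are Bex4, Bex1, Ank3 and Nlgn2.

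Rprm, a p53-induced gene linked to arrest of the cell cycle, was the leading gene of growth control, with a 9.63-fold difference. It had -0.37 and 2.35 in null pools 1 and 2, against -2.45 and -2.11 in the wild-type pools, and its second probe gave -1.30 and 2.54, against -2.20 and -2.23. Null pool 2 was by far the brightest on both probes. Among the p53 targets as a list, 1 of 21 measured in every pool was higher and 2 lower, against 15.9% and 21.5% of the 11310 genes. Ptpn13, a phosphatase gene, differed by 2.30, and by 2.61 on its second probe. Efs, an adaptor of Src kinases, differed by 2.24, and by 2.12 on its second probe. Cgref1, Spsb4, Hunk, Rragd and Ndrg2 differed by 1.33 to 1.98.

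Germ cell genes were few. Fmr1nb, a gene expressed in germ cells, had 0.50 and -1.14 in the null pools, against -2.13 and -3.01 in the wild-type pools (4.75-fold). Ifitm1, an interferon-induced membrane protein gene of early germ cells, had 3.14 and 2.08 in the null pools, against 1.77 and 0.73 in the wild-type pools. In both genes the order was null pool 1, null pool 2, wild-type pool 1 and wild-type pool 2. Of 29 germline genes of the type repressed by the E2F6 complex, 10 were measured in every pool. Of these, 2 were higher (20.0%) and 2 lower, and none is a member. Over the 11310 genes 15.9% were higher and 21.5% lower. Of the 29, 11 and 17 were not well above background in null pools 1 and 2, and 10 and 14 in wild-type pools 1 and 2. Such genes could not be members. Rec8, a meiosis gene, was left out by name at 3.24-fold. Germ cell identity genes had summed linear levels of 97.4 and 16.4 in null pools 1 and 2. Wild-type pools 1 and 2 had 34.5 and 21.6. Of 7 such genes measured in every pool 2 were higher and 1 was lower, against 15.9% and 21.5% of the 11310 genes. Ifitm1, a member, is in this list. The part of germ cell content in the values of Fmr1nb and Ifitm1 was not tested.

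The noncoding RNA Meg3, expressed from the maternal allele of the Dlk1-Dio3 domain, had 3.11 and 5.55 in the null pools, against 2.60 and 2.54 in the wild-type pools. Of its 4 further probes, the 2 that were well above background on all arrays differed by 2.08 and 1.90 and were also brightest in null pool 2. Dlk1 and Rian of the same domain are the 2 genes left out because null pool 2 stood so far apart. Without null pool 2 the log2 difference of Meg3 was 0.54. Pisd-ps3, a pseudogene, had 5.26 and 4.42 in the null pools, against 3.04 and 3.44 in the wild-type pools. A clone name, C130026I21Rik, had the second largest difference, 13.4-fold, and the clone 2200002D01Rik differed by 1.46. The remaining 9 members (Wdr86, Zcchc18, Dbndd1, Tlcd1, Tmem35a, Kctd14, Parm1, Fam222a and Wscd2), placed in no role, differed by 1.30 to 2.30.

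**Figure D3:**
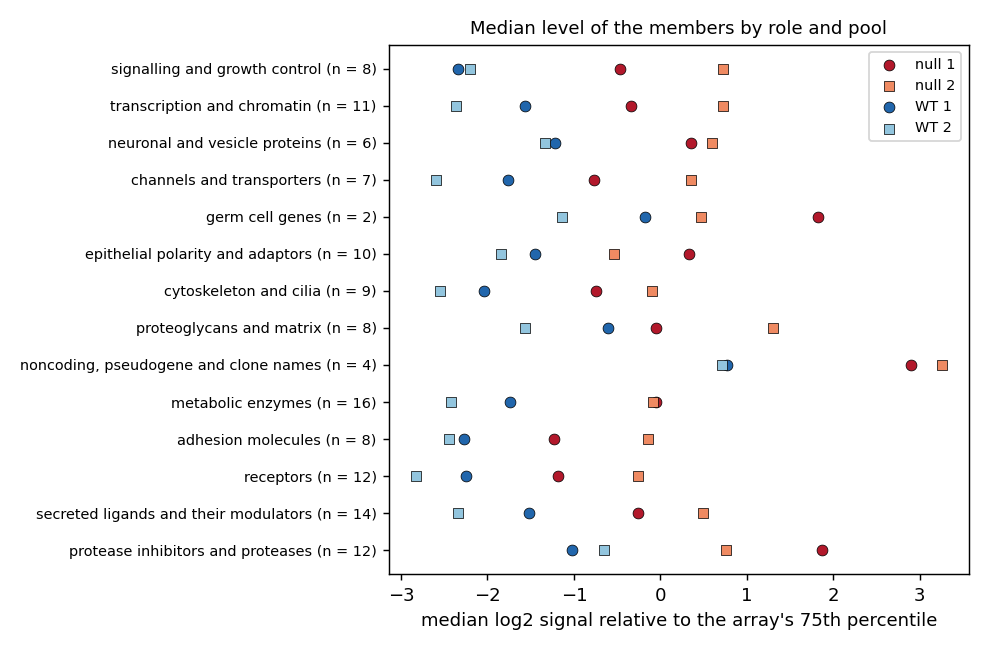
Median level (log2 signal relative to the array's 75th percentile) of the members of each role in null pools 1 and 2 and wild-type pools 1 and 2, leaving out the 9 members placed in no role. Proteoglycan and matrix genes had medians of -0.06 and 1.30 in null pools 1 and 2, whereas genes of epithelial polarity and adaptors had 0.33 and -0.53. The roles were set after the values were seen.

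The members did not form 1 pattern. Of the 136, 45 were brighter in null pool 2 than in null pool 1 by over 1 log2 unit, 22 were brighter in null pool 1 by as much, and 43 lay within 0.5. Over the 11310 genes 63.4% lay within 0.5, against 31.6% of the members, and 10.6% lay over 1 apart, against 49.3%. Null pool 2 was the brighter in 46.1% of the 11310 genes and in 64.0% of the members. The members were chosen for large differences and were dimmer, at a median mean level of -1.13 against 0.74, so the shares are not like for like. The excess of null pool 1 over the wild-type mean and that of null pool 2 correlated at r = -0.34 across the 136 members, which share the wild-type values and were chosen by a lower limit on the mean of both excesses. The 5 members most in excess in null pool 1 over null pool 2 were Clca1, Grb7, Bex4, Serpina1d and Cpm. The 5 at the other end were Smarcd3, Rprm, Ccdc80, Nlgn2 and Meg3.

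**Figure D4:**
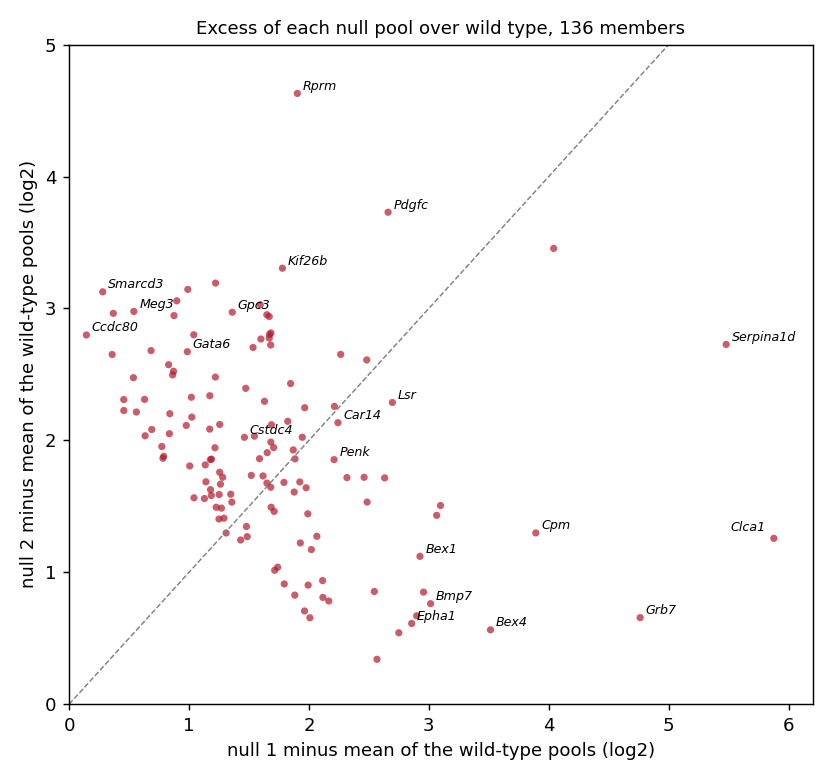
Excess of null pool 1 (x axis) and null pool 2 (y axis) over the mean of the wild-type pools, in log2 units, for each of the 136 members, with the line of equality. The excess was larger in null pool 2 for 87 members and in null pool 1 for 49, and Clca1 and Grb7 lie far to the right while Rprm lies at the top.

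A steady subset was found in 19 members whose pools lay within 0.5 of each other in both genotypes, a subset picked out after the values were seen. It holds Csta1, Cstdc5, Stfa2, Stfa2l1, Ddc, Car14, Penk, H2bu2, Cgref1, Fcgr2b, Nkain1, Pcdhb22, Spon2, Rab15, Eno3, Dlg3, Pard6g, Eml2 and Cenpv. Their differences ran from 1.34 to 2.46. The gap between the genotypes in these genes follows from how they were picked.

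The wild-type pools also differed from each other in these genes. Wild-type pool 1 was brighter than wild-type pool 2 in 110 of 136 members (80.9%), with a median difference of 0.52. The share was 55.2% in the 1794 genes with both null values above both wild-type values and 45.3% in the 11310 genes, which have a median mean level of 0.74 against -1.13 for the members. The lowest level called well above background was -3.68 on wild-type array 1 and -4.11 on wild-type array 2, and 31 members lay within 1 log2 unit of it on the second. The part of this limit in the order was not tested. The 26 exceptions include Csta1, Cstdc5, Stfa2, Stfa2l1, Serpina1d, Clca1, Rprm and Slpi. In the same 2 pools germ cell identity, gonadal somatic and mesothelial markers had higher summed levels in wild-type pool 1, at 34.5 against 21.6, 36.7 against 30.1 and 16.1 against 12.99. Endothelial and leukocyte markers had lower summed levels in wild-type pool 1, at 765 against 857 and 420.4 against 488. Stromal markers had a slightly lower sum in wild-type pool 1, at 218 against 224, but a higher median level, at -0.03 against -1.01. The part of all these marker lists in the order of the members was not tested.

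**Figure D5:**
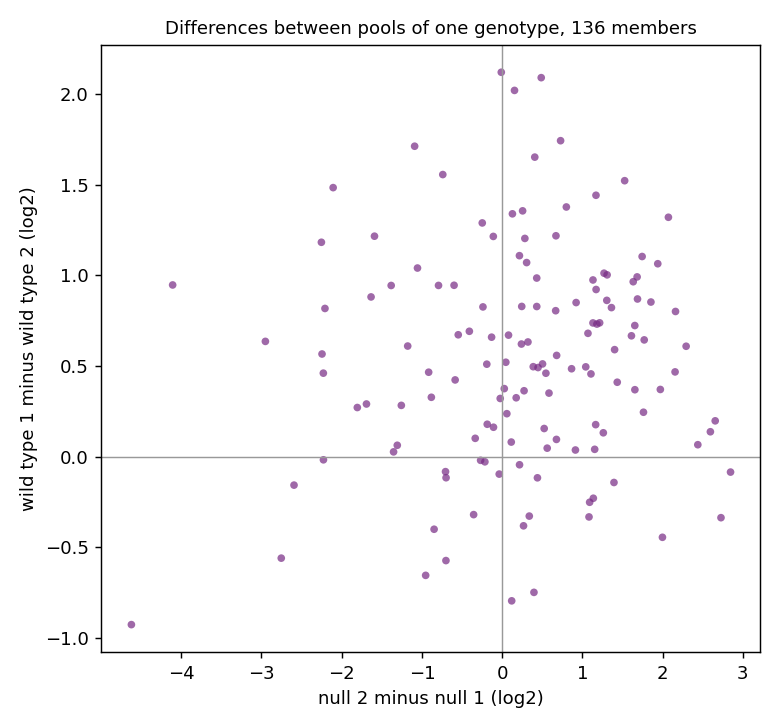
Null pool 2 minus null pool 1 (x axis) against wild-type pool 1 minus wild-type pool 2 (y axis), in log2 units, for each of the 136 members. Most points (110) lie above 0 on the y axis, while on the x axis 87 lie above 0 and 49 below.

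Further probes gave the same direction where they could be read. Of the 136 members 40 had another probe, 53 probes in all, of which 20 probes of 16 members were well above background on every array. All 20 had both null values above both wild-type values, with a median difference of 1.91, against 1.82 for the chosen probes of the same genes. They were hybridised to the same arrays and are no independent replicate. Of the 33 probes that were dim on at least 1 array, 18 had both null values above both wild-type values.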

How the data were processed

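RNA of 2 HP1γ-null and 2 wild-type pools (4 ng each, amplified and labelled with Cy3, per the labels' protocols) was measured on 4 one-colour Agilent arrays. The deposited intensity values were extracted with Agilent Feature Extraction 10.7.3.1, per the file headers, background-subtracted per array and not scaled across arrays. The value table deposited by the authors holds the same signals within 0.497%. Arrays limit precision by their number.

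Computed here, in Python 3.11.15 with pandas 2.3.3, were levels: each processed signal was divided by its array's 75th percentile (43379 spots, controls left out) and then put on the log2 scale. Spots with outlier marks (83 to 104 per array) were left out, and spots of 1 probe were averaged. RefSeq (GRCm38.p6) supplied gene names by accession, versions dropped, and named 26880 of 41174 probes (18323 genes, 18318 of them with a value on every array). The array was designed on another build, so no probe coordinates are given. The probe with the highest mean stood for a gene. The 2 genotypes were tested with limma 3.58.1 (R 4.3.3), two-sided over 22440 probes that passed the scanner's background flag on both arrays of a genotype, with Benjamini-Hochberg adjustment. The fit was tested on simulated data. The replicates are separate embryo pools per the labels.

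Members, gene lists and naming rule were chosen with earlier results of these data known, so no list gives independent support. Roles and paralogue families were set after the values were seen. Genes were named as the 24 largest differences, those near the limit, the 6 brightest, the 5 most unequal null pools each way, up to 4 members of each list and neighbouring members, and further members were named to complete a role or family. The 136 members follow the rule in the order written, the names being left out after the 150 were taken. Promoter windows from RefSeq matched 99 of the 136 members, under 80%, so the planned comparison of base composition and motifs is void and not given. The lists gonadal soma, mesothelium, epithelial junction, stroma, endothelium, leukocyte, germ cell identity, germline, Wnt, BMP, Notch with Hedgehog and retinoid, p53 and neuronal-type are given in the text. Alternatives were other scalings, normexp on the median signal (a mean signal was not used here), the deposited table, other filters, a replicate block and leaving out each array.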

Additional observations from a re-analysis of the deposited data

How the results depend on the processing

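The members were chosen on 4 arrays under 1 scaling, and 2 pools per genotype give no firm spread. All 136 kept a positive difference under quantile normalization, the median of bright probes, the spiked-in controls, normexp and the authors' deposited table. Their median log2 difference was 1.15 under scaling to spiked-in controls, which moved the median of the 11310 genes to -0.58, and 1.07 under normexp, whose offset of 50 draws dim signals together. At least 2-fold differences were then left in 87 and 85 members, and groups did not overlap in 97 and 127. Leaving out 1 array gave medians of 1.50 to 2.04. Differences under 2-fold were found in 17 members without null pool 1, 26 without null pool 2, 1 without wild-type pool 1 and 15 without wild-type pool 2. Taking the 150 genes after leaving out the names added 14 genes and gave a median of 1.67. For 59 named members under the 3 scalings, normexp and the deposited table, 260 of 295 values lay within 1 SD of the value given, and 35, all under spiked-in controls or normexp, lay further off. The replicate block cannot move these differences, leaving out 1 pool of 2 cannot move them by 1 SD, and it cannot turn their sign in members chosen without overlap. The count of 2 probes called by limma was 146 with spiked-in controls (111 higher and 35 lower), 7 with a variance trend, 1 over probes well above background on all arrays and 0 without a filter (1474 at an unadjusted p under 0.05). Leaving out any 1 array brought it to 0, where unadjusted p-values under 0.05 numbered 607 to 5644. With the replicate number as a block it was 13 (8 higher and 5 lower). Deviations of pools with the same number correlated at 0.07. With 2 pools per genotype this cannot show whether such pools share more than a number. A block for the slide was not run, because all 4 arrays lie on 1 slide.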
